A study of Mus musculus with 12 samples.

Results

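The 46 genes described here encode the machinery that carries proteins between the endoplasmic reticulum (ER) and the Golgi in COPII and COPI vesicles. They were taken by gene name from the 55367 distinct gene names that the files list. By role they comprise 10 COPII coat genes, 1 exchange factor for Sar1, 9 subunits of the COPI coatomer, 4 genes of Arf activation (3 Arf GTPases and the exchange factor Gbf1), 14 cargo receptors, 2 tethers and 6 SNAREs. RNA was sequenced from muscle fibers isolated from the extensor digitorum longus (EDL) muscle of mice and stained with the calcium indicator Fluo-4. Groups of young, Fluo-4 normal and Fluo-4 abnormal fibers with 4 samples each were compared. Young fibers came from mice of 3 to 4 months, and both Fluo-4 normal and Fluo-4 abnormal fibers came from mice of 26 to 28 months, sorted by their staining under a fluorescence stereomicroscope. The methods name the C57BL/6 J strain and a separate source for the aged mice, and the labels give no genotype or treatment for any group. The number of fibers or animals behind a sample is not given in the sources used here, so the spread between samples may be in part technical.

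COPII vesicles bud from the ER when the exchange factor Preb (Sec12) loads the small GTPase Sar1, which recruits the inner coat of Sec23 and Sec24 and the outer coat of Sec13 and Sec31. Sec24 picks the cargo. COPI vesicles form on the intermediate compartment and the Golgi when Gbf1 loads an Arf GTPase and the 7-part coatomer binds, and they return escaped ER proteins and receptors to the ER. Cargo receptors of the p24 (Tmed), Ergic, Surf4 and Kdelr families cycle in these vesicles, golgins catch them, and SNAREs fuse them with their target. In muscle fibers the ER includes the sarcoplasmic reticulum (SR), the calcium store of the fiber.

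All 46 genes were detected and none fell under the low-value limit. Values are given as TPM, a share of all transcripts scaled by transcript length, so that levels of different genes may be compared. Together the members held 0.288% to 0.313% of the TPM in young fibers, 0.268% to 0.295% in Fluo-4 normal fibers and 0.338% to 0.363% in Fluo-4 abnormal fibers. The abnormal samples were the 4 highest of the 12. One gene dominated the sum: Sar1b, the GTPase that starts the COPII coat, averaged 1184 TPM over the 12 samples and made up 33.3% to 41.4% of the summed level. Next in level were Tmed2 at 211 TPM, Arf1 at 196 TPM and Cope at 133 TPM. At the other end lay the cargo-binding coat subunit Sec24d at 0.519 TPM, the coatomer subunit Copg2 at 3.84 TPM, Sec24b at 4.14 TPM and the SNARE Gosr1 at 4.70 TPM. Sec24d was therefore close to the lower end of what these values resolve.

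Promoters of the members were examined because many of these genes are known targets of the unfolded protein response. RefSeq promoter sequences (build GRCm38.p6, 250 bases before to 50 bases after each start site, printed on the strand of the gene) were at hand for 41 members and not for Golgb1, Tmed2, Tmed7, Kdelr2 and Arcn1. The letters TGACGTGG, the core of the unfolded protein response element that XBP1 binds, were found on either strand in the promoters of 7 members: Sec23a, Sec24d, Copb1, Copb2, Arf1, Gbf1 and Stx5a. That was 17.1% of the 41 members, against 0.676% of 32851 mouse promoters in the same table and 0.823% of 17492 protein-coding genes. The ER stress element (ERSE, CCAAT and CCACG with any 9 bases between them) and its second form (ERSE-II, ATTGG and CCACG with any base between them), searched on both strands, matched in no member, and in 0.119% and 0.0365% of all promoters (0.166% and 0.0629% of protein-coding genes). The cyclic AMP response element TGACGTCA, which differs from the first motif only in its last letters, matched in Cope and Gosr2, 4.88% of the members against 1.79% of all promoters and 2.54% of protein-coding genes. A match is a description of the letters and not a site shown to be bound, and the members were chosen with their function known. The stretches below, with the match in capitals (CCACGTCA where it lies on the other strand), show how close to the start site these letters lie.
Gbf1 (chr19:46152535-46152564, plus strand, first matched base 12 bases before the start site): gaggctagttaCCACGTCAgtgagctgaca
Copb2 (chr9:98563713-98563742, plus strand, 7 bases before): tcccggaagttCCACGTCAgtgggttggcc
Copb1 (chr7:114254690-114254719, minus strand, 28 bases before): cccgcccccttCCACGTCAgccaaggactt
Sec24d (chr3:123267459-123267488, plus strand, 26 bases before): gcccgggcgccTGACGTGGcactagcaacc
Sec23a (chr12:59011993-59012022, minus strand, 6 bases after): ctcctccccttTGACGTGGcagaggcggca
Stx5a (chr19:8741422-8741451, plus strand, 9 bases after, with another match 30 bases further on): tggcgcagcagCCACGTCAccgagttagga
Arf1 (chr11:59228228-59228257, minus strand, 84 bases before one RefSeq start site and 21 bases after another): gcggcaggcgcTGACGTGGctgccgtcagc

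Gbf1, the exchange factor of the early Golgi, had the largest difference between aged fibers among these 7 genes, and its 250 bases before the start site (chr19:46152308-46152557, plus strand) are given in full with the same letters in capitals.
Gbf1 promoter: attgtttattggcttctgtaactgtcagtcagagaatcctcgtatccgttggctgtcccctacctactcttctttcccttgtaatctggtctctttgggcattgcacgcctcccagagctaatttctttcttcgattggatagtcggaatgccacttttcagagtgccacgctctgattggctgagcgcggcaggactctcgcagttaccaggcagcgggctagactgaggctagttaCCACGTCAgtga
The 7 members with a match differed between Fluo-4 abnormal and Fluo-4 normal fibers by a median of 0.37 on the log2 scale (range 0.20 to 0.78), and 4 of them passed the test described below. The 34 members without a match had a median of 0.39 (range -0.15 to 0.68), and 20 of them passed. The ranges of these sets overlapped.

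Markers were examined as a check that the samples were muscle fibers, which does not test the group labels. Myh4, the myosin of fast IIB fibers, made up 96.9% to 98.5% of the summed TPM of Myh1, Myh2, Myh4 and Myh7 in young fibers. The share was 93.7% to 99.2% in Fluo-4 normal and 98.9% to 99.7% in Fluo-4 abnormal fibers. All 8 myofiber markers were expressed. Some features of the libraries moved with the groups. Mitochondrially-encoded genes held 8.75% to 10.9% of the TPM in Fluo-4 normal and 4.75% to 6.92% in Fluo-4 abnormal fibers, against 7.35% to 8.01% in young fibers. The summed TPM of the 8 myofiber markers ran from 119241 to 137468 in normal and from 144774 to 165465 in abnormal fibers. Of the 8, 2 rose (Myh4 and Actn3). Myh1 was the only marker of this list with a negative difference, -1.81 on the log2 scale, which did not pass (limma, adjusted p = 0.087). Scaling factors of the trimmed-mean (TMM) type were 0.805 to 1.00 in normal and 1.06 to 1.18 in abnormal fibers. Markers of other cells were low, and their sums overlapped between the aged groups for satellite cells (12.0 to 22.4 TPM in normal, 18.5 to 32.4 in abnormal), endothelium (7.89 to 37.0 and 4.44 to 17.2), fibroblasts (25.4 to 83.1 and 13.6 to 64.4), immune cells (5.81 to 16.2 and 9.53 to 16.3), Schwann cells (1.42 to 7.01 and 3.63 to 8.15), and smooth muscle and pericytes (5.09 to 22.7 and 3.34 to 12.2). Erythroid genes (119 to 482 and 44.4 to 236 TPM) and adipocyte genes (32.7 to 109 and 8.28 to 64.4 TPM, with Adipoq, Plin1, Cidec and Lep at 0 throughout) overlapped as well. Of the markers of other cells tested, 1 passed between the aged groups, the immune gene Cd3e, which was higher in abnormal fibers. No counts of reads were used, so the depth is unknown.

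These genes were first compared between the aged fibers with and without abnormal Fluo-4 staining. The members were chosen with earlier results of these data known. The paper took genes with a 2-fold change from young fibers and then a P value under 0.05 between the aged groups. That threshold differs from the one used here. Among terms for genes increased in the abnormal fibers it had also listed Golgi vesicle transport, COPII-mediated vesicle transport and the Coatomer-Arf1 complex. The counts therefore describe the members and are no independent test of them. The members were higher in the abnormal fibers almost throughout: 44 of 46 had a positive fitted difference, 28 rose at an adjusted p under 0.05 and none fell. Differences of log2(TPM + 1) were fitted with limma over all 14427 genes tested. Over all genes 9.35% were called, 7.36% higher and 1.99% lower. Among the 6348 genes with a group mean of at least 5 TPM, a level that 44 of the members reached, 14.0% were called higher and 3.7% lower. A positive difference was found for 69.6% of all genes and for 4992 of the 6348 at 5 TPM or more. At an unadjusted p under 0.05, which 25.6% of all genes reached, 38 members were higher and none lower. The pooled-variance test without moderation called 2 members, Sec13 and Arf5, both higher, beside 104 of 14427 genes. The 4 abnormal and the 4 normal samples did not overlap for 32 members, all higher, against 11.5% of all genes (20.1% of those at 5 TPM or more). The share of genes that were lower without overlap was 2.54%. The median difference was 0.39 over the members, 0.10 over all genes and 0.20 over genes at 5 TPM or more. The number of fibers in a sample is not given. If fibers were pooled, fewer cells of a type and less RNA per cell cannot be told apart. Exons of 27 members share at least 100 bp with another gene and 7 members have a near-identical copy elsewhere, and of the 16 members with neither, 9 rose with a median of 0.37.

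**Figure D1:**
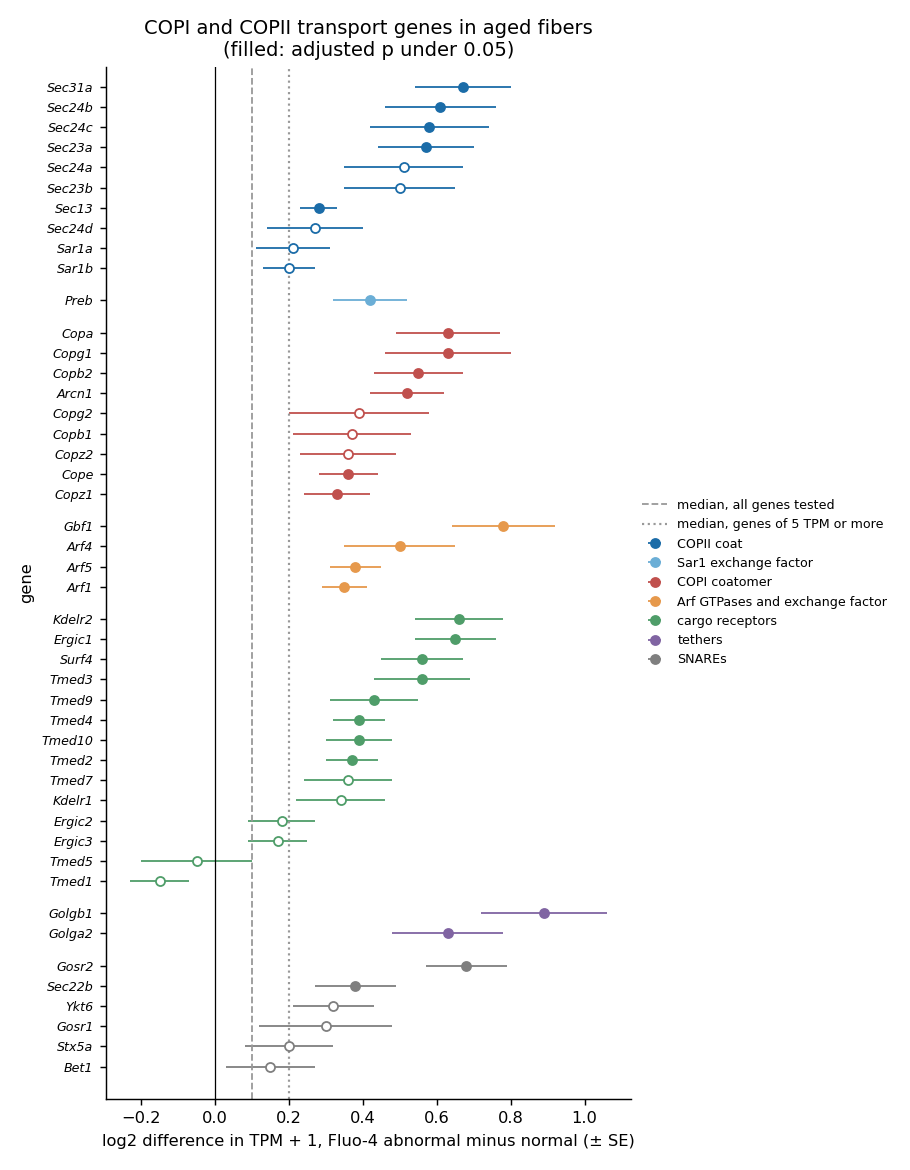
Fitted log2 difference in TPM + 1 (horizontal axis) between Fluo-4 abnormal and Fluo-4 normal fibers for the 46 genes, grouped by role, with bars for the standard error and filled points for an adjusted p under 0.05. All points but Tmed1 (-0.15) and Tmed5 (-0.05) lie above 0, with Golgb1 at 0.89 farthest to the right, and the dashed and dotted lines mark the medians of all genes (0.10) and of genes at 5 TPM or more (0.20).

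How much of this depended on the scaling of the samples was then measured. With TMM-type factors, which set the median of all genes to 0.00 instead of 0.10, the members kept a median of 0.18, with 38 above and 8 below 0 (50% of all genes above), and 9 rose (Gbf1, Golgb1, Gosr2, Ergic1, Sec31a, Copa, Copb2, Sec23a and Surf4) while 1, Tmed1, fell (-0.37, adjusted p = 0.021). By that scaling 2.13% of all genes rose and 3.67% fell, so that the single member that fell is no more than that share. When mitochondrially-encoded genes were left out of the scaling, 21 members rose (4.38% of all genes did) and the median was 0.33. Aged samples of the same number deviated together. With that number as a replicate block, in a fit of the aged samples alone, 20 members rose (6.36% of all genes). Of these, 18 were among the 28 called in the fit of all 12 samples. The aged samples alone without the block gave 13 members that rose, beside 421 of 14427 genes. A call lost with the block thus also reflects the young samples left out of that fit. Gbf1, Ergic1, Gosr2, Copa, Copb2, Sec23a and Surf4 rose with the deposited scaling, with TMM-type factors and with the block. With the block and TMM-type factors together 1 member rose, a share near the 1.02% of all genes that did. Aged abnormal replicate 2 carried weight, since 13 members were called without it, when 2.86% of all genes rose. With the Myh4 share as a covariate 20 were called (4.94% of all genes rose), 18 of them among the 28.

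**Figure D2:**
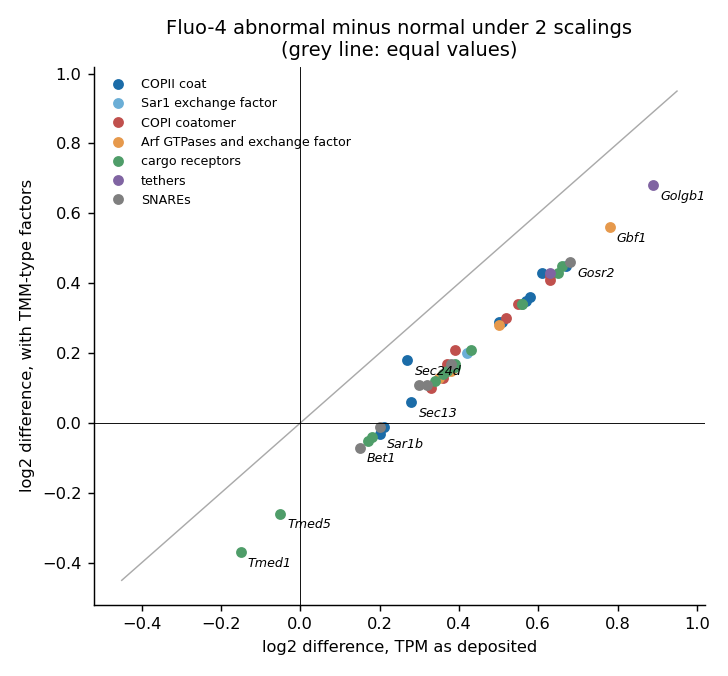
Each point is 1 of the 46 genes, with the log2 difference between Fluo-4 abnormal and normal fibers from the deposited TPM on the horizontal axis and after TMM-type scaling on the vertical axis. The points lie below the grey line of equal values, the median falls from 0.39 to 0.18, and the genes near the bottom of the range, such as Sar1b (0.20 to -0.03) and Bet1 (0.15 to -0.07), pass below 0.

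Among the 10 COPII coat genes, 5 rose (Sec31a, Sec24b, Sec24c, Sec23a and Sec13), none fell, and 7 did not overlap. Below, samples are always listed in the order of replicates 1 to 4. Sec31a (chr5:100509494-100564425, GRCm39), whose product forms the outer cage together with Sec13, stood at 13.5, 16.5, 18.1 and 21.4 TPM in normal, 28.3, 31.8, 25.3 and 26.4 TPM in abnormal and 18.3, 22.1, 17.6 and 16.0 TPM in young fibers. Every abnormal sample lay above every other sample. The difference from normal fibers was 0.67 ± 0.13 (SE) with an adjusted p of 0.0094, and with the replicate block the adjusted p was 0.057. Sec13, which also serves in nuclear pores, was the steadiest of the coat genes, at 73.3, 74.4, 74.4 and 74.9 TPM in normal and 89.2, 88.9, 94.0 and 89.6 TPM in abnormal fibers. Young fibers held 80.2, 76.9, 82.9 and 77.7 TPM, between the aged groups. Sec13 rose by the least of the called members, 0.28 ± 0.05 (adjusted p = 0.0067), yet with the smallest spread. With TMM-type factors that difference was 0.06 (adjusted p = 0.77).

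In the inner coat, Sec23a, which stimulates GTP hydrolysis by Sar1, was at 21.8, 30.2, 35.8 and 26.7 TPM in normal, 38.7, 49.8, 41.0 and 41.1 TPM in abnormal and 39.1, 38.5, 40.5 and 32.5 TPM in young fibers. The abnormal samples overlapped the young ones and lay above all normal ones (0.57 ± 0.13, adjusted p = 0.018). Without Aged abnormal replicate 2 or without Aged normal replicate 4 the call was lost, with an adjusted p of up to 0.069. Its paralog Sec23b held 9.67, 10.9, 13.5 and 11.1 TPM in normal, 19.7, 13.8, 16.2 and 16.2 TPM in abnormal and 9.36, 12.3, 11.6 and 7.73 TPM in young fibers. For Sec23b the aged groups did not overlap, but the difference of 0.50 ± 0.15 missed the threshold (adjusted p = 0.054).

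All 4 Sec24 genes, the cargo adaptors, had positive differences. Sec24b was at 2.27, 2.99, 4.04 and 2.85 TPM in normal, 5.58, 5.09, 4.68 and 5.04 TPM in abnormal and 3.69, 4.36, 4.34 and 4.77 TPM in young fibers, and rose by 0.61 ± 0.15 (adjusted p = 0.025, or 0.098 with the replicate block). Sec24c was at 13.0, 22.2, 18.7 and 20.1, 25.9, 29.9, 23.7 and 31.3 and 20.3, 25.2, 22.5 and 17.4 TPM in the same order and rose by 0.58 ± 0.16 (adjusted p = 0.035, or 0.051 with the block). Both calls were fragile, since Sec24b lost it in 3 and Sec24c in 8 of the 12 fits that leave out a sample, Aged abnormal replicate 2 among them. Sec24a, at 9.85, 14.1, 16.2 and 12.2 TPM in normal, 15.1, 23.7, 19.5 and 17.7 TPM in abnormal and 9.45, 10.7, 12.5 and 11.0 TPM in young fibers, overlapped between the aged groups and missed the threshold (0.51 ± 0.16, adjusted p = 0.061), whereas the block gave 0.043. Sec24d was near the floor, at 0.492, 0.407, 0.492 and 0.290 TPM in normal, 0.738, 1.30, 0.422 and 0.517 TPM in abnormal and 0.495, 0.355, 0.394 and 0.324 TPM in young fibers (adjusted p = 0.21). Its highest value was in Aged abnormal replicate 2, and no difference was detectable at this level.

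The Sar1 GTPases differed least within the coat. Sar1b (chr11:51646771-51682780, GRCm39) was at 1111, 995, 1163 and 1144 TPM in normal, 1266, 1208, 1215 and 1369 TPM in abnormal and 1188, 1197, 1213 and 1146 TPM in young fibers. All abnormal samples exceeded all normal samples, by a narrow margin (0.20 ± 0.07, adjusted p = 0.084). Sar1a was at 71.4, 92.4, 90.8 and 78.2, 86.5, 105, 104 and 89.4 and 81.1, 90.2, 82.7 and 76.2 TPM, with overlap (0.21 ± 0.10, adjusted p = 0.19, or 0.045 with the replicate block). Both differences were slightly negative with TMM-type factors (-0.03 and -0.01), so neither has a settled direction. Preb, the ER membrane protein that activates Sar1, held 34.9, 30.2, 35.4 and 32.4 TPM in normal, 44.9, 43.3, 42.9 and 47.4 TPM in abnormal and 33.8, 49.8, 40.5 and 40.1 TPM in young fibers. It rose by 0.42 ± 0.10 (adjusted p = 0.022), with abnormal fibers inside the range of young ones, and lost the call without any one of Aged normal replicates 2 and 4 and Aged abnormal replicates 2 and 4 (adjusted p up to 0.066). Exons of Preb share 1169 bp with Abhd1 on the other strand, and libraries of this kind keep no strand.

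**Figure D3:**
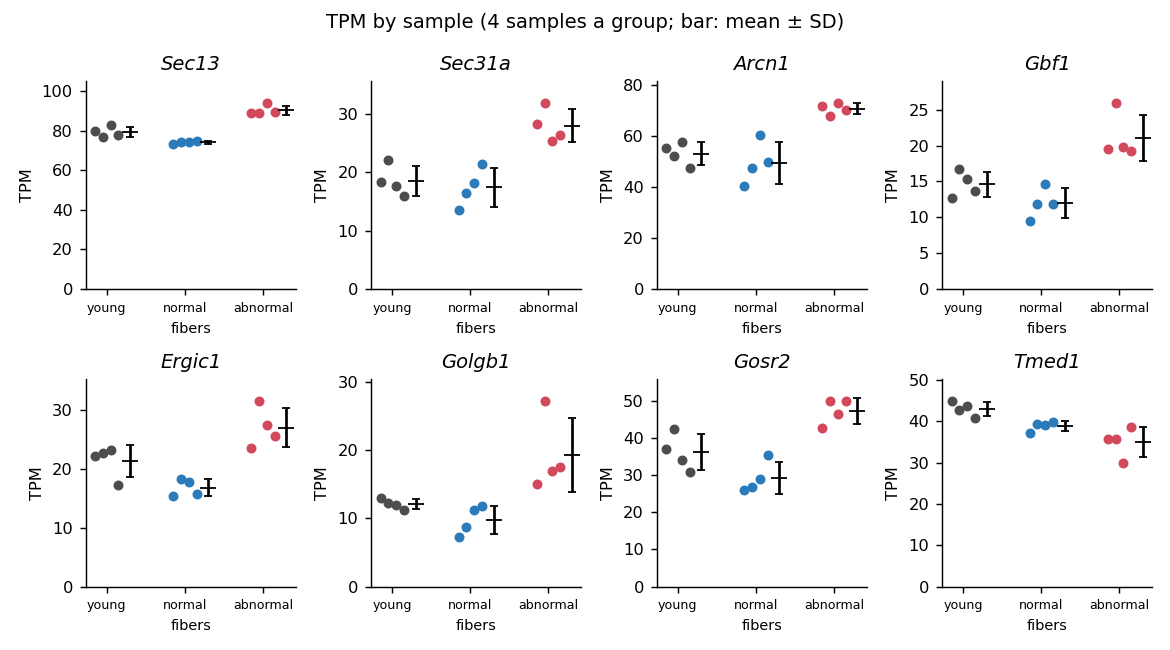
TPM in each sample (vertical axes from 0) for 7 genes that rose in Fluo-4 abnormal against normal fibers and for Tmed1, by group, with the mean and SD beside the 4 points. Abnormal samples lie above all normal samples in the first 7 panels, and Tmed1 runs from 44.9, 42.8, 43.6 and 40.8 TPM in young to 35.8, 35.7, 30 and 38.6 TPM in abnormal fibers.

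Of the 9 coatomer subunits, 6 rose (Copa, Copg1, Copb2, Arcn1, Cope and Copz1), none fell, and 7 did not overlap. Arcn1 (chr9:44651966-44679147, GRCm39), the delta subunit, held 40.4, 47.5, 60.2 and 49.8 TPM in normal, 71.9, 67.9, 72.8 and 70 TPM in abnormal and 55.2, 52.0, 57.8 and 47.4 TPM in young fibers. Its abnormal samples were tightly grouped above all others, with a difference of 0.52 ± 0.10 from normal fibers (adjusted p = 0.0087) that held whichever sample was left out. Copa, the alpha subunit that recognises retrieval signals, was at 24.6, 36.5, 40.8 and 38.0 TPM in normal, 46.8, 65.0, 54.7 and 50.7 TPM in abnormal and 38.4, 39.9, 37.6 and 32.9 TPM in young fibers, and rose by 0.63 ± 0.14 (adjusted p = 0.016). Copb2, the beta-prime subunit with the same role, was at 19.1, 25.2, 30.1 and 25.9, 33.0, 42.5, 36.2 and 36.2 and 30.1, 31.7, 33.2 and 26.6 TPM and rose by 0.55 ± 0.12 (adjusted p = 0.016). For Copa and Copb2 the lowest value of all was in Aged normal replicate 1 and the highest in Aged abnormal replicate 2, and without the latter the adjusted p was 0.064 and 0.061.

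The gamma and zeta subunits exist as paralogs. Copg1 was at 9.31, 14.8, 14.0 and 16.0 TPM in normal, 18.1, 23.1, 19.7 and 23.9 TPM in abnormal and 16.5, 19.7, 16.4 and 12.4 TPM in young fibers and rose by 0.63 ± 0.17 (adjusted p = 0.032), a call lost in 7 of 12 fits with a sample left out (up to 0.10). Copg2, at 3.18, 2.82, 2.71 and 3.21, 3.52, 5.56, 3.85 and 4.07 and 4.29, 5.97, 2.65 and 4.28 TPM, did not pass (0.39 ± 0.19, adjusted p = 0.23), although the aged groups did not overlap. Its exons share 3850 bp with Mest on the other strand, which limits what this value measures. Copz1 was at 34.8, 31.8, 30.3 and 33.1 TPM in normal, 40.1, 42.4, 35.8 and 46.0 TPM in abnormal and 33.1, 36.9, 34.3 and 31.5 TPM in young fibers and rose by 0.33 ± 0.09 (adjusted p = 0.031, or 0.052 with the replicate block). Copz2 was higher in level than Copz1, at 41.7, 53.5, 43.2 and 48.1, 46.2, 59.4, 63.0 and 74.9 and 42.8, 47.0, 46.5 and 41.3 TPM, with overlap between the aged groups (0.36 ± 0.13, adjusted p = 0.086). The remaining subunits were Cope, which rose by 0.36 (adjusted p = 0.016, or 0.080 with the block), and Copb1, with 0.37 and an adjusted p of 0.15.

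All 4 genes of Arf activation rose. Gbf1 (chr19:46140915-46274950, GRCm39), which loads Arf with GTP so that the coatomer can bind, was at 9.48, 11.9, 14.7 and 11.8 TPM in normal, 19.5, 25.9, 19.8 and 19.2 TPM in abnormal and 12.7, 16.7, 15.3 and 13.6 TPM in young fibers. Abnormal samples lay above all others, with replicate 2 standing apart, and the difference of 0.78 ± 0.14 (adjusted p = 0.0049) held without that sample and whichever other one was left out (adjusted p up to 0.020). With TMM-type factors its adjusted p was 0.0050, the smallest of the 46 members, and with the replicate block it was 0.034. Arf1, the most abundant Arf here, was at 164, 179, 182 and 173 TPM in normal, 213, 244, 223 and 214 TPM in abnormal and 183, 205, 193 and 181 TPM in young fibers. It rose by 0.35 ± 0.06 (adjusted p = 0.0059, or 0.30 with a difference of 0.13 with TMM-type factors), and all 4 abnormal samples exceeded all 8 others. Arf5 was at 52.3, 54.9, 55.8 and 58.7, 72.8, 76.2, 67.8 and 72.3 and 61.6, 73.1, 72.9 and 62.5 TPM and rose by 0.38 ± 0.07 (adjusted p = 0.0088). Unlike Arf1, Arf5 in abnormal fibers overlapped with young fibers. Arf4 was at 16.7, 24.1, 28.7 and 23.1 TPM in normal, 36.4, 33.5, 30.5 and 30.2 TPM in abnormal and 20.1, 26.4, 26 and 20.2 TPM in young fibers, and its rise of 0.50 ± 0.15 only just passed (adjusted p = 0.048, or 0.14 with the replicate block) and was lost in 11 of the 12 fits with a sample left out.

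The 14 cargo receptors were the least uniform class, with 8 that rose (Kdelr2, Ergic1, Surf4, Tmed3, Tmed9, Tmed4, Tmed10 and Tmed2), 6 that did not pass and 2 of these with negative differences. Ergic1 (chr17:26780436-26875908, GRCm39), a membrane protein that cycles through the intermediate compartment, was at 15.3, 18.2, 17.8 and 15.8 TPM in normal, 23.6, 31.5, 27.4 and 25.5 TPM in abnormal and 22.1, 22.6, 23.2 and 17.3 TPM in young fibers. It rose by 0.65 ± 0.11 (adjusted p = 0.0045), and all abnormal samples lay above all others. The p24 proteins Tmed4 and Tmed2, which carry lipid-anchored and other cargo, were more abundant. Tmed4 was at 47.7, 47.0, 53.9 and 50.7 TPM in normal, 65.7, 69.9, 64.2 and 62.5 TPM in abnormal and 47.8, 52.0, 49.4 and 45.8 TPM in young fibers and rose by 0.39 ± 0.07 (adjusted p = 0.0048). Tmed2 was at 172, 196, 191 and 196, 224, 269.7, 246 and 239.7 and 204, 204, 203 and 190.5 TPM and rose by 0.37 ± 0.07 (adjusted p = 0.0056). Both had abnormal samples clear of all 8 others, and both calls were lost with TMM-type factors (adjusted p of 0.22 and 0.23).

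The KDEL receptors return escaped ER chaperones from the Golgi. Kdelr2 was at 9.79, 11.2, 11.5 and 8.78 TPM in normal, 17.0, 15.3, 15.1 and 20.5 TPM in abnormal and 11.5, 12.2, 10.0 and 11.6 TPM in young fibers and rose by 0.66 ± 0.12 (adjusted p = 0.0057, or 0.065 with the replicate block). Kdelr1, the more abundant of the pair, was at 26, 23.6, 28.9 and 25.7, 24.5, 37.1, 36.6 and 36.5 and 29.4, 34.8, 32.0 and 33.8 TPM. The other abnormal samples lay at 36.5 to 37.1 TPM while replicate 1 lay among the normal samples, so the difference of 0.34 ± 0.12 did not pass (adjusted p = 0.098). Without that sample it was 0.485 with an adjusted p of 0.0058. Surf4, an export receptor for soluble cargo, rose by 0.56 ± 0.11 (adjusted p = 0.0074), and its exons share 4601 bp with Surf2 on the other strand. Tmed10 rose by 0.39 (adjusted p = 0.015) and has a near-identical copy, Tmed10-ps, which the files list separately. Tmed3 and Tmed9 rose by 0.56 and 0.43 (adjusted p = 0.018 and 0.040), and neither call held with the replicate block (0.086 and 0.063). Tmed7, Ergic2 and Ergic3 had differences of 0.36, 0.18 and 0.17 that did not pass.

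Tmed1 (chr9:21418673-21421548, GRCm39), another p24 protein, went the other way. It was at 44.9, 42.8, 43.6 and 40.8 TPM in young, 37.1, 39.3, 39.2 and 39.8 TPM in normal and 35.8, 35.7, 30 and 38.6 TPM in abnormal fibers. The young samples lay above all aged samples, and the aged groups overlapped. Between abnormal and normal fibers the difference was -0.15 ± 0.08 (adjusted p = 0.25), and with TMM-type factors it was -0.37 and passed (adjusted p = 0.021). Against young fibers Tmed1 fell by 0.29 ± 0.08 on the log2 scale (limma, adjusted p = 0.035), as the sole member that fell in that comparison. A single member is no more than the 2.41% of all genes that fell there. The call was lost in 6 of 12 fits with a sample left out, those without any one young sample among them (adjusted p up to 0.098). With the Myh4 share as a covariate the adjusted p was 0.076. Tmed5 was at 23.2, 19.3, 20.7 and 17.2, 13.8, 19.4, 20.7 and 15.1 and 12.7, 16.9, 20 and 16.8 TPM in young, normal and abnormal fibers, with overlap of all groups. Its difference between the aged groups, -0.05 ± 0.15, changed sign in 4 alternatives and has no settled direction.

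Both tethers rose. Golgb1 (giantin, chr16:36695502-36753447, GRCm39), a long golgin of COPI vesicles and Golgi membranes, had the largest difference of the 46 genes. It was at 7.32, 8.69, 11.2 and 11.8 TPM in normal, 15.1, 27.2, 17.0 and 17.6 TPM in abnormal and 13.0, 12.2, 12.0 and 11.2 TPM in young fibers. The difference from normal fibers was 0.89 ± 0.17 (adjusted p = 0.0078, or 0.055 with the replicate block), all abnormal samples exceeded all others, and replicate 2 was far above the other abnormal samples. Golga2 (GM130), which holds vesicles at the cis-Golgi, was at 6.76, 9.85, 8.91 and 6.86, 10.2, 15.7, 14.5 and 12.0 and 10.6, 10.5, 9.20 and 9.74 TPM. It rose by 0.63 ± 0.15 (adjusted p = 0.018), and abnormal replicate 1 lay within the young range. Without Aged abnormal replicate 2 or 3 or Aged normal replicate 4 the call was lost (adjusted p up to 0.066).

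Of the 6 SNAREs, 2 rose. Gosr2 (membrin, chr11:103564614-103588871, GRCm39), a Golgi SNARE of the ER-Golgi complex, had the smallest p of all 46 members. It was at 25.9, 26.7, 29.0 and 35.5 TPM in normal, 42.7, 49.9, 46.6 and 50 TPM in abnormal and 37.2, 42.4, 34.2 and 30.9 TPM in young fibers. The difference was 0.68 ± 0.11 (adjusted p = 0.0038) and held whichever sample was left out. Its partner Sec22b was at 24.2, 24.9, 26.1 and 20, 34.1, 34.4, 29.3 and 27.7 and 25.4, 26, 26 and 21.7 TPM and rose by 0.38 ± 0.11 (adjusted p = 0.037), a call lost in 9 of 12 fits with a sample left out. Ykt6, a lipid-anchored SNARE, was at 10.6, 11.5, 9.59 and 12.3, 13.8, 14.0, 12.3 and 15.9 and 13.1, 14.2, 11.4 and 12.4 TPM. The aged groups were apart by less than the rounding of these values, and its difference of 0.32 ± 0.11 did not pass (adjusted p = 0.082), and its exons share 1813 bp with Camk2b on the other strand. Gosr1 was at 3.52, 4.57, 4.64 and 5.02 TPM in normal, 8.88, 4.94, 4.57 and 4.96 TPM in abnormal and 3.80, 3.94, 3.81 and 3.73 TPM in young fibers, with 1 abnormal sample far above the rest (0.30 ± 0.18, adjusted p = 0.33). Stx5a and Bet1 had differences of 0.20 and 0.15, neither of which passed.

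The COPII coat was then set against COPI, the cargo receptors and the tethers. The median difference between abnormal and normal fibers was 0.51 over the 10 COPII coat genes, 0.39 over the 9 coatomer genes, 0.44 over the 4 Arf genes, 0.38 over the 14 cargo receptors, 0.76 over the 2 tethers and 0.31 over the 6 SNAREs. Called members made up 5 of 10 COPII coat genes and 16 of the 25 genes of the coatomer, cargo receptors and tethers. With TMM-type factors the same medians were 0.29, 0.21, 0.22, 0.15, 0.56 and 0.11. The mean log2(TPM + 1) of the COPII coat minus that of the coatomer, within each sample, ran from -0.17 to -0.05 in young, from -0.17 to 0.01 in normal and from -0.16 to -0.02 in abnormal fibers. These ranges overlapped. Differences of single genes ran from 0.20 to 0.67 in COPII and from 0.33 to 0.63 in COPI.

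**Figure D4:**
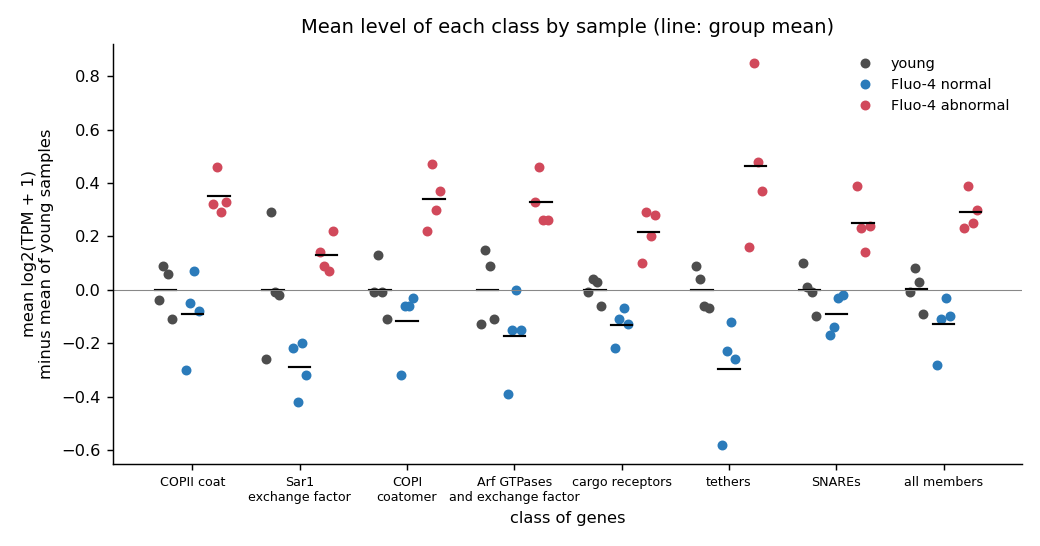
Mean log2(TPM + 1) of each class in each sample, as a difference from the mean of the young samples (vertical axis), with a line for each group mean. For all members together the abnormal samples lie at 0.23 to 0.39, the normal samples at -0.28 to -0.03 and the young samples at -0.09 to 0.08, and Aged normal replicate 1 is lowest and Aged abnormal replicate 2 highest.

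A second comparison set the abnormal fibers against young fibers, with the same abnormal samples as above. Staining, age and the source of the mice differ together in it. Here 42 of 46 members had a positive difference, as did 66.7% of all genes and 4345 of 6348 genes at 5 TPM or more. Of the members, 15 rose and 1, Tmed1, fell, against 8.5% of all genes called, 6.09% that rose and 2.41% that fell (10.3% and 4.36% of genes at 5 TPM or more). The groups did not overlap for 22 members that were higher and 1 that was lower, against 12.2% and 3.95% of all genes (19.5% higher at 5 TPM or more). The members' median was 0.32, and that of all genes 0.07. Immune markers (1.8 to 3.02 TPM in sum in young and 9.53 to 16.3 in abnormal fibers, 2 of 6 tested higher) and Schwann cell markers (0.773 to 1.81 and 3.63 to 8.15 TPM, 2 of 6 higher) moved with this comparison, and their part in it was not tested. With TMM-type factors 6 members rose (3.11% of all genes did), Tmed1 fell (4.71% of all genes did), and 35 differences were above and 11 below 0, with 50.8% of all genes above. The largest rise was that of Sec24a, 0.74 ± 0.16 (adjusted p = 0.012), which had overlapped between the aged groups. Next came Sec23b with 0.65 ± 0.15 (adjusted p = 0.020) and Tmed9 with 0.58 ± 0.12 (adjusted p = 0.011). Exons of Sec24a, at a mean of 14.3 TPM, share 149 bp with Sar1b on the other strand, at a mean of 1184 TPM. Sec24a, Tmed4, Tmed9, Surf4 and Kdelr2 kept the call whichever sample was left out. The count was less steady than between the aged groups, falling to 6, 9 and 5 without Young replicates 1, 3 and 4 and to 6, 9 and 8 without Aged abnormal replicates 2, 3 and 4. Calls over all genes fell too, from 1226 of 14427 to 706, 808 and 576 and to 700, 907 and 744.

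By class, the rises from young to abnormal fibers comprised 4 of 10 COPII coat genes (Sec13, Sec23b, Sec24a and Sec31a), 3 of 9 coatomer genes (Copa, Cope and Arcn1), 2 of 4 Arf genes (Arf1 and Gbf1) and 6 of 14 cargo receptors (Tmed2, Tmed4, Tmed9, Tmed10, Surf4 and Kdelr2). Neither tether and no SNARE passed, with adjusted p of 0.053 for Golgb1 and 0.054 for Gosr2. Sec31a and Gbf1 differed by 0.57 ± 0.13 and 0.50 ± 0.14 (adjusted p = 0.020 and 0.038). Some genes that rose against normal fibers did not pass against young fibers, among them Preb with 0.13 ± 0.10, Arf5 with 0.10 ± 0.07 and Sec24b with 0.21 ± 0.15 (adjusted p = 0.50, 0.47 and 0.47).

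To compare ages without abnormal staining, Fluo-4 normal fibers were set against young fibers. Age and the source of the mice cannot be told apart in this comparison. No member passed (limma, smallest adjusted p 0.10), where 1.15% of all genes did, 0.561% higher and 0.589% lower. At an unadjusted p under 0.05, which 12.9% of all genes reached, none were higher and 8 were lower: Sec23a, Sec24b, Preb, Copb2, Arf5, Ergic1, Kdelr1 and Gosr2. Immune markers summed to 5.81 to 16.2 TPM in normal and 1.8 to 3.02 TPM in young fibers (1 of 6 tested higher). Adipocyte genes summed to 32.7 to 109 TPM in normal and 15.4 to 28.6 TPM in young fibers, without overlap. Erythroid genes summed to 119 to 482 and 33.1 to 121 TPM, with a narrow overlap. No adipocyte or erythroid gene passed, and the part of these cells in the comparison was not tested. The pooled-variance test also called no member, with 7 at an unadjusted p under 0.05, which 1732 of 14427 genes reached. Of the 46 members, 36 had a negative difference, as did 4159 of 6348 genes at 5 TPM or more, and 43.9% of all genes had a positive one. The median was -0.12, beside -0.02 over all genes and -0.07 over genes at 5 TPM or more. With TMM-type factors the members' median was -0.07 with 33 below 0 (50.2% of all genes above, 0.894% called higher). The most negative were Sec23a (-0.40 ± 0.13) and Sec24b (-0.40 ± 0.15). Of the members, 4 did not overlap and were lower in normal than in young fibers (Sec13, Arf5, Tmed1 and Kdelr1), beside 4.96% of all genes and 8.68% of those at 5 TPM or more, and none was higher without overlap, beside 3.03%. The most positive was Sec24a (0.23 ± 0.16, adjusted p = 0.59). The comparisons with normal fibers share those samples, so a low value in them raises the one and lowers the other.

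Ratios of paralogs within a sample do not depend on how the samples were scaled, and they were compared for 9 pairs. Between abnormal and normal fibers no pair was without overlap (two-sided exact permutation test over 70 arrangements, smallest p 0.143, adjusted over the pairs 0.771, smallest possible p 0.0286). This test ignores the pairing of aged samples by number. Within same-numbered samples no paralog ratio differed in one direction in 4 of 4. The largest difference was in Kdelr2 to Kdelr1, whose log2 ratio was -1.41, -1.07, -1.33 and -1.55 in normal and -0.53, -1.28, -1.28 and -0.83 in abnormal fibers. Abnormal replicates 1 and 4 lay above all normal samples and the other two among them (difference 0.36, exact permutation p = 0.143). In the COPII coat, Sec23b to Sec23a differed by -0.05 (exact permutation p = 0.8) and Sar1b to Sar1a by -0.02 (exact permutation p = 0.943).

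Ratios within the inner COPII coat were then set against young fibers, where no difference passed after adjustment over the 9 pairs. The log2 ratio of Sec24b to Sec24a was -1.36, -1.30, -1.52 and -1.20 in young, -2.12, -2.24, -2.0 and -2.10 in normal and -1.43, -2.22, -2.06 and -1.81 in abnormal fibers. All normal samples lay below all young samples, by 0.77 on average (exact permutation p = 0.0286, adjusted over 9 pairs 0.0857), while abnormal fibers were lower by 0.53 and overlapped with young ones (p = 0.0571 by the same exact test). For Sec23b to Sec23a the ratio was -2.06, -1.65, -1.80 and -2.07 in young, -1.17, -1.47, -1.41 and -1.26 in normal and -0.98, -1.85, -1.34 and -1.34 in abnormal fibers. Normal fibers were higher by 0.57 without overlap (exact permutation p = 0.0286, adjusted 0.0857), and abnormal fibers by 0.52 with overlap. The third pair without overlap between normal and young fibers was Gosr2 to Gosr1, at 3.29, 3.43, 3.17 and 3.05 in young, 2.88, 2.55, 2.65 and 2.82 in normal and 2.26, 3.33, 3.35 and 3.33 in abnormal fibers. The abnormal samples lay in the young range except for replicate 1, which, with its high Gosr1, lay below all other samples.

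From young to abnormal fibers, 2 pairs did not overlap. Arf5 to Arf4 was lower, at 1.00, 1.19, 1.15 and 1.26 in abnormal beside 1.62, 1.47, 1.49 and 1.63 in young and 1.65, 1.19, 0.96 and 1.35 in normal fibers (difference -0.40, exact permutation p = 0.0286, adjusted 0.129). Kdelr2 to Kdelr1 was higher by 0.54, with a young ratio of -1.36, -1.51, -1.67 and -1.55 (exact permutation p = 0.0286, adjusted 0.129). None of these differences passed after adjustment, and the smallest p that 4 against 4 samples allow is 0.0286. The other pairs showed no separation in any comparison. Copz2 to Copz1 was 0.37, 0.35, 0.44 and 0.39 in young, 0.26, 0.75, 0.51 and 0.54 in normal and 0.20, 0.49, 0.82 and 0.70 in abnormal fibers, with a narrower spread in the young samples. Copg2 to Copg1 and Sec24d to Sec24c rested on low values and varied widely, over -2.63 to -1.53 and over -6.15 to -5.36 in young fibers alone.

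**Figure D5:**
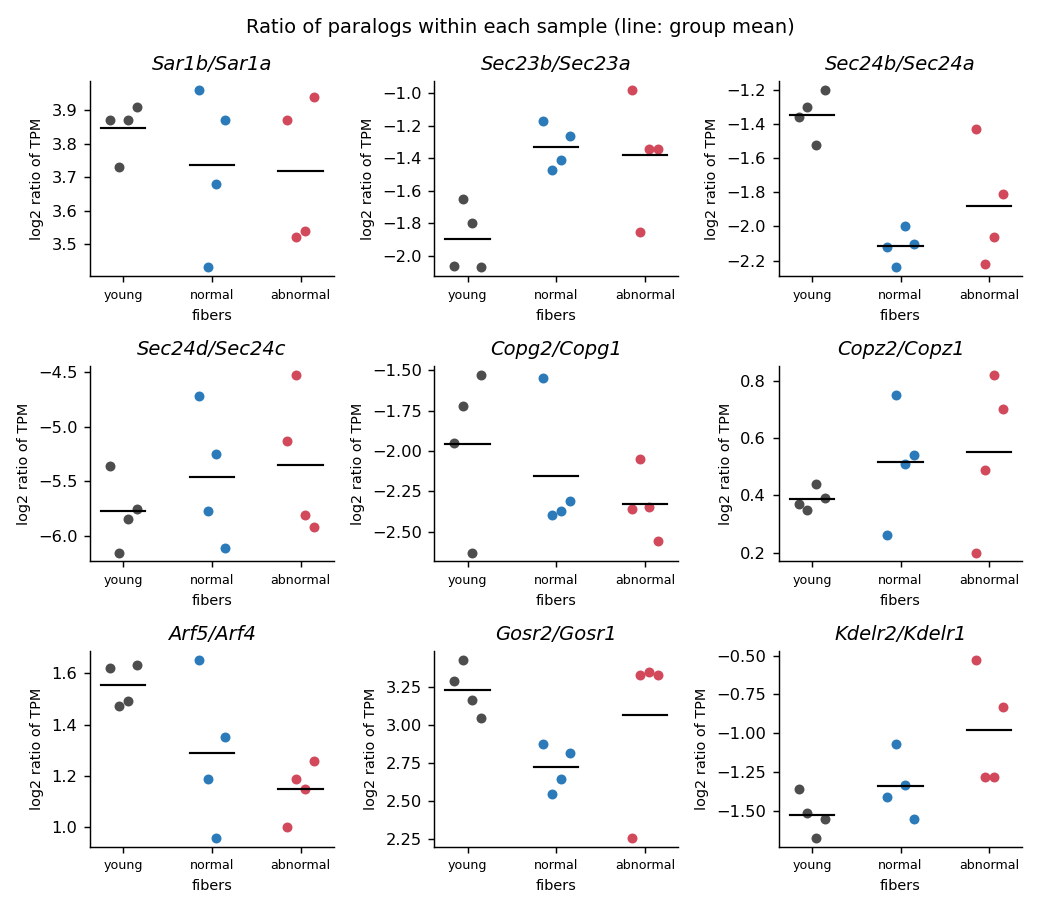
Log2 ratio of TPM of 2 paralogs within each sample (vertical axis, scaled to each pair), by group, for 9 pairs, with a line for the group mean. Sec24b/Sec24a falls from a mean of -1.34 in young to -2.11 in normal fibers and Sec23b/Sec23a goes from -1.90 to -1.33, while in no pair do the 2 aged groups separate.

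Other genes of ER-Golgi transport, in lists also chosen with earlier results of these data known, were counted to see how far the pattern reached. Of 77 such genes, 75 passed the low-value limit, 73 of them with a positive difference between abnormal and normal fibers, 17 rose, none fell, and the median was 0.25. Over all genes 69.6% had a positive difference (4992 of 6348 at 5 TPM or more), 7.36% rose (14.0% at 5 TPM or more) and the median was 0.10 (0.20 at 5 TPM or more). With TMM-type factors 7 of the 75 rose, beside 2.13% of all genes, with a median of 0.04. By list, 1 of 10 exit-site factors, 5 of 14 further cargo receptors, 3 of 9 further Arf regulators, 5 of 32 further tethers and Rab genes and 3 of 10 further SNARE genes rose. The gene with the smallest p in each list was named. Uso1 (p115), the tether that binds Golga2 and giantin, was at 18.2, 23.7, 26.1 and 23.9 TPM in normal, 37.9, 37.2, 35.1 and 37.9 TPM in abnormal and 22.7, 26.2, 25.1 and 20.8 TPM in young fibers and rose by 0.68 ± 0.11 (adjusted p = 0.0029). Arfgap3, which turns Arf off on COPI vesicles, was at 2.16, 2.34, 2.58 and 3.19, 6.68, 7.78, 5.30 and 8.12 and 1.73, 3.12, 4.01 and 2.20 TPM and rose by 1.15 ± 0.20 (adjusted p = 0.0046). Both stood clear of all young and all normal samples.

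Napa (alpha-SNAP), which helps to recycle SNAREs after fusion, was at 122, 129, 150 and 123 TPM in normal, 181, 215, 193 and 190.2 TPM in abnormal and 151, 160.4, 169.9 and 142 TPM in young fibers and rose by 0.57 ± 0.08 (adjusted p = 0.0020). The lectin receptor Lman2 was at 14.3, 16.1, 16.2 and 15.1, 25.4, 29.9, 21.7 and 23.8 and 15.3, 18.4, 20.7 and 16.4 TPM and rose by 0.67 ± 0.11 (adjusted p = 0.0040). Tfg, which organises ER exit sites, rose by 0.32 ± 0.08 (adjusted p = 0.029), from 44.1, 39.1, 45.4 and 44.4 TPM in normal to 60.0, 54.4, 48.7 and 54.8 TPM in abnormal fibers. Its young samples, at 48.8, 51.1, 51.4 and 42.9 TPM, overlapped with the abnormal ones.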

How the data were processed

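The members and gene lists were chosen with earlier results of these data known. Single fibers of mouse EDL muscle were isolated with collagenase and stained, and libraries were made with an ultra-low-input SMART-Seq kit that keeps no strand. Alignment by the authors used DRAGEN 4.3 and the GRCm39 mouse genome, and the values they deposited are TPM, divided by transcript length and scaled to 1 total in every sample. The annotation release is not given in the sources used here, and counts of reads were not used, so the depth and the precision it gives are unknown.

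Lines with the same gene name were summed. Protein-coding and mitochondrially-encoded genes with a group mean of at least 0.02 TPM were kept, the study's low-value limit (14427 genes). Differences in log2(TPM + 1) were tested in 1 fit of all 12 samples with limma 3.58.1 (R 4.3.3, moderated with a trend), and p-values were adjusted by Benjamini-Hochberg over all genes tested. A fold change on this scale understates that of low genes. The script was tested on simulated data. Alternatives were TMM-type factors, other pseudocounts, limits and gene sets, sample weights, a covariate, a replicate block and leaving out each sample. Between the aged groups the block was fitted to the aged samples alone, so its p-values differ from the main fit in samples as well. Aged samples with the same number correlated in their deviations from the group means at 0.30 to 0.44 (4 pairs, 5994 genes), against -0.36 to 0.23 for different numbers, so the numbers were taken to pair the aged samples. For young samples with the same number as aged ones the correlation was -0.08 to 0.23, against -0.18 to 0.25 for different numbers. The block still joined young and aged samples by number in the comparisons with young fibers, without a basis in these values. Paralog ratios were tested by exact permutation. Values per sample are given for the 3 members of each class with the smallest p between the aged groups, for paralog pairs, and for members lower in abnormal than in normal fibers; others were named after their values were seen. Positions were taken from GRCm39, and promoters from RefSeq on GRCm38.p6.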

Additional observations from a re-analysis of the deposited data

Results flagged for a closer look

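In 6 of 105 groups of 4 values per member, 1 sample lay far from the other 3, and chance alone flags about 1 in 20 groups. Sec13 was at 94.0 TPM in Aged abnormal replicate 3, above the 88.9 to 89.6 TPM of the other abnormal samples. Gbf1 was at 25.9 TPM in Aged abnormal replicate 2, against 19.2 to 19.8 TPM in the others. Tmed2 was at 190.5 TPM in Young replicate 4, below the 203 to 204 TPM of the other young samples. Kdelr1 was at 24.5 TPM in Aged abnormal replicate 1, below the 36.5 to 37.1 TPM of the others. In the same library Gosr1 was at 8.88 TPM, above the 4.57 to 4.96 TPM of the others. Sec22b was at 21.7 TPM in Young replicate 4, below the 25.4 to 26 TPM of the other young samples.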

How the results depend on the processing

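Between abnormal and normal fibers the count of 28 changed members became 10 with TMM-type factors, 13 with only these groups in the fit, 2 with an unmoderated pooled-variance test and 1 with TMM-type factors and the replicate block together. Over all 14427 genes the calls were 1349 in the main fit and 838, 566, 104 and 469 in these alternatives, in the same order. Of the 16 members with no shared exon stretch or copy, 9 were called. Leaving out 1 sample gave 13 (without Aged abnormal replicate 2) to 27. TMM-type factors also lowered the class medians to 0.29 (COPII coat), 0.21 (coatomer), 0.22 (Arf genes), 0.15 (cargo receptors) and 0.11 (SNAREs). Between abnormal and young fibers the count of 16 became 7 with TMM-type factors, 10 over all annotated entries, 3 with the pooled-variance test and 9 with TMM-type factors and the block, and leaving out 1 sample gave 5 to 20. Over all genes the calls were 1226 of 14427 in the main fit. They were 1127 of 14427, 1067 of 22367, 687 of 14427 and 1412 of 14427 in these alternatives, in the same order. The share of members called by the pooled-variance test was near that of all genes. The 17 other ER-Golgi genes that rose became 7 with TMM-type factors, 10 when scaled without mitochondrially-encoded genes and 11 with the replicate block. Of all genes 2.13%, 4.38% and 6.36% rose in these settings. With the block alone the aged groups gave 20 members. The comparison with young fibers gave 21, which kept all 16 calls there. That block joined young and aged samples by number, and nothing shows that these numbers belong together. Their correlation of -0.08 to 0.23 lay within the -0.18 to 0.25 of different numbers, so the kept calls add no check. No member was called between normal and young fibers under any alternative run. Over all 14427 genes the block gave 1150 and 1651 calls in the first 2 comparisons. The combination of block and TMM-type factors and the count without overlapping members were chosen after seeing the data. No paralog pair separated the aged groups, but 1 did without Aged normal replicate 2 and 1 without Aged abnormal replicate 1 (leaving out 1 sample gave 0 to 1). Sar1a reversed to -0.0111 and Sar1b to -0.0283 with TMM-type factors, with and without the block. Tmed5 reversed to 0.201 with the Myh4 share as covariate and, with a sample left out, to 0.00889, 0.0387 and 0.0656 without Aged normal replicate 2, Aged normal replicate 3 and Aged abnormal replicate 1 (lowest -0.145). The cause of these shifts was not tested. Bet1 (-0.07), Ergic2 (-0.04), Ergic3 (-0.05) and Stx5a (-0.01) were below 0 with TMM-type factors too and are not in the next counts. Over the alternatives for 35 of the 46 members between the aged groups, 663 of 838 values kept direction and call, 151 lost the call, 16 gained it and 8 reversed. Depth is unknown, and levels under 1 TPM, such as Sec24d, limit what can be detected.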
